A study of Mus musculus with 21 samples.

Results

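The 10 genes described here are the core of the circadian clock and its first output: Per1, Per2, Per3, Cry1, Cry2, Arntl, Clock, Nr1d1, Dbp and Ciart. They were taken by symbol from 2 tables of RNA-seq read counts for mouse brain, each holding 21872 gene symbols, and all 10 were found in both tables and passed the filter on low counts in both. Control mice received water, and the mice labelled copper-deficient received trientine (TETA), a drug that chelates copper. The groups were 6 control and 6 TETA libraries at embryonic day 18.5 (E18.5), and 5 control and 4 TETA libraries at 7 weeks after birth. The labels give brain as the tissue of every library, and the extraction protocol speaks of prefrontal cortex from males at 7 weeks, so the region and sex at E18.5 are not stated. Strain, the drug's dose and route, and the hour at which tissue was collected are not given in the sources used here. The chelator is the model of copper deficiency, and the copper content of the tissue was not analysed here. The E18.5 libraries carry numbers in 2 parts, from 1-1 to 3-2, whose meaning is not given. No source says that libraries of a group came from separate animals or litters, so p-values measure the spread between these libraries, which may be in part technical.

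The clock is a feedback loop of transcription. CLOCK and ARNTL (BMAL1) form the activator, which binds E-box sequences and turns on the Per and Cry genes, Nr1d1, Dbp and Ciart. PER and CRY proteins then repress the activator, while NR1D1 (REV-ERB alpha) represses Arntl through elements it shares with the ROR receptors. In most tissues, cortex included, the E-box driven genes therefore peak at about the opposite time of day to Arntl, Cry1 peaks later than Per genes, and Clock and Cry2 are weakly rhythmic. A group collected later or earlier in the day than the other can therefore differ in opposite directions for the E-box driven genes and for Arntl. Here Per1, Per2, Per3, Nr1d1, Dbp and Ciart are called the evening arm and Arntl and Clock the positive arm.

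Start-site sequences are shown for the 2 members that fell at 7 weeks, Cry1 and Dbp, and for the 2 members with the most matches to clock motifs, Ciart and Per3. Each window runs from 250 bases before to 50 bases after the transcription start in RefSeq on build GRCm38.p6 (mm10), is written 5′ to 3′ on the gene's strand, and has motif matches in capitals. The motifs searched on both strands were the E-box CACGTG, the D-boxes TTATGTAA and TTACGTAA, the ROR element cores TAGGTCA and TGGGTCA, and the cAMP response element TGACGTCA. Overlapping matches of different motifs were allowed for. The Cry1 window is chr10:85185005-85185304 on the minus strand, Dbp is chr7:45704997-45705296 on the plus strand, Ciart is chr3:95882179-95882478 on the minus strand, and Per3 is chr4:151044616-151044915 on the minus strand.
Cry1: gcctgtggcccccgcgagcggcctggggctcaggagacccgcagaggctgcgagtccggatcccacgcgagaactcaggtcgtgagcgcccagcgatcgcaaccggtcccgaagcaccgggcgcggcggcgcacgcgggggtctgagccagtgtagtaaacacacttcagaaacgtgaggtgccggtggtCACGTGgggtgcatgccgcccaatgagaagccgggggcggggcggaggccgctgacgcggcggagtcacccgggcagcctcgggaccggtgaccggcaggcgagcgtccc
Dbp: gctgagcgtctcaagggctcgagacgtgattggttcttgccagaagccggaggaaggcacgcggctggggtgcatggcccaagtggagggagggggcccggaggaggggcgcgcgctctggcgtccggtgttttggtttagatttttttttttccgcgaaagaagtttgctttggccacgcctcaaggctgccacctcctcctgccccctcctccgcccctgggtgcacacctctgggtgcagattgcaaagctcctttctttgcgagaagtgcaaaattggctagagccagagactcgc
Ciart: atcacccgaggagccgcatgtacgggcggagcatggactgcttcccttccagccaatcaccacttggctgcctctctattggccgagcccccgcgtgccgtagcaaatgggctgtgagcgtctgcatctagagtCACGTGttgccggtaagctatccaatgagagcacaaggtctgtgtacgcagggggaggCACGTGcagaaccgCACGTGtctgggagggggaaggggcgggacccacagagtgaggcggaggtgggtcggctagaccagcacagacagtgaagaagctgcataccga
Per3: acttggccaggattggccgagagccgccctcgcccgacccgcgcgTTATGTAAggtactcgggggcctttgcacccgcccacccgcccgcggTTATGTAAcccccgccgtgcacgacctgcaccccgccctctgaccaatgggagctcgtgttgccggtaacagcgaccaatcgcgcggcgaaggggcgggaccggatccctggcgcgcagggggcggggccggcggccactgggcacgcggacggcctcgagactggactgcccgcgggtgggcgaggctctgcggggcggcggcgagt
The capitals mark 1 E-box in the Cry1 window, 3 E-boxes in the Ciart window and 2 D-boxes in the Per3 window, and the Dbp window has no match to these letters. Of 32851 windows of the same length, 7.15% hold the E-box and 1.06% hold either D-box. Of the other members, Per1 has 1 E-box, 166 bases before its start, and Arntl has 1 ROR core TAGGTCA, 30 bases after its start. Either ROR core is in 6.45% of windows. No match was found in the Clock, Cry2 and Nr1d1 windows, and 9 of the 10 members had a window; the exception is Per2. A match is a string of letters in 1 short window and not evidence of binding.

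The embryonic libraries held 14678265 to 24308555 counts and the 7-week libraries 17838051 to 24035857. At E18.5, 1940 rows at 0 in control replicate 1-1 were divided by 11, because their counts elsewhere are all multiples of 11. None of the members was among these rows (0 of 10). Cortical excitatory neuron markers were present at both ages: Slc17a7, the cortical glutamate transporter, was at 1669 CPM (a gene's count relative to its library's scaled total) and Tbr1, a factor of deep-layer neurons, at 169.9 CPM in control at 7 weeks. Six6, which marks the suprachiasmatic nucleus, the hypothalamic pacemaker, was at 0 CPM in all 9 libraries at 7 weeks, and Avp was at 0.110 CPM in control there. At E18.5 Six6 was at 0 CPM in control and at most 0.0511 CPM in TETA, while Avp ran from 0.339 to 7.73 CPM in control and from 0.460 to 3.50 CPM in TETA, and Lhx1, another pacemaker marker, averaged 1.76 CPM in control. The neuropeptide Vip, at 39.4 CPM in control at 7 weeks, is also made by cortical interneurons. At 7 weeks control replicate 4 stood apart in choroid plexus markers: Ttr, the transthyretin gene, was at 51.9 CPM there, against a control median of 0.644 CPM and at most 1.203 CPM in TETA. The mean centred log2(CPM + 1) of the choroid plexus list was 1.31 in that library, -0.26 to -0.05 in the other 4 control libraries and -0.35 to 0.03 in TETA.

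At 7 weeks, Cry1 and Dbp fell in TETA and none of the 10 members rose. In bulk tissue, fewer cells of a type and less RNA per cell cannot be told apart. Cry1 fell by 0.42 and Dbp by 0.27 on the log2 scale, while the other 5 evening arm genes had positive log2 fold changes that did not pass. Across the genome, the quasi-likelihood test of edgeR, with p-values adjusted by the Benjamini-Hochberg method, called 1418 of 14240 genes at a threshold of 0.05, a background of 9.96%, with 5.67% higher and 4.28% lower. Among the members 2 of 10 passed, both lower, and 5 of 10 had an unadjusted p under 0.05, beside 24% of all genes. The values of the groups did not overlap for 2 members, both lower, beside 11.2% of all genes (4.91% lower and 6.26% higher). Of the members 7 had a positive log2 fold change, beside 50.1% of all genes, and their median was 0.07 beside 0.0002.

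Cry1 encodes a cryptochrome, the strongest repressor of CLOCK and ARNTL. Its gene lies at chr10:85131700-85185064 (mm10, minus strand). In the 5 control libraries it was at 21.1, 20.7, 25.1, 23.3 and 21.2 CPM, and in the 4 TETA libraries at 16.4, 17.0, 16.2 and 16.7 CPM. Every TETA library lay below every control library, and the TETA values were close together. The means were 22.3 ± 1.88 CPM and 16.6 ± 0.361 CPM (SD, n = 5 and 4). The log2 fold change was -0.42 (SE 0.064), with an edgeR adjusted p of 0.000245. Leaving out each library in turn left it between -0.45 and -0.38, and with the level of striatal markers as a covariate it was -0.15 and did not pass (edgeR adjusted p = 0.999). Its paralogue Cry2, also a repressor of the activator, was at 171.8, 155.9, 169.6, 181.9 and 171.0 CPM in control and at 160.0, 172.5, 169.7 and 165.7 CPM in TETA. These ranges overlap, with a log2 fold change of -0.03 (SE 0.040, edgeR adjusted p = 0.744).

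Dbp encodes a PAR bZIP transcription factor that carries the rhythm to D-box genes, and its own transcript is among the most strongly rhythmic. Its gene lies at chr7:45705088-45710203 (mm10, plus strand). Control libraries were at 97.5, 91.4, 97.7, 109 and 94.5 CPM and TETA libraries at 79.9, 85.1, 81.1 and 79.7 CPM. The groups did not overlap. The means were 98.0 ± 6.57 CPM and 81.4 ± 2.50 CPM (SD, n = 5 and 4). Its log2 fold change was -0.27 (SE 0.045, edgeR adjusted p = 0.000655). Leaving out each library in turn left it between -0.29 and -0.23, and with the striatal covariate it was -0.09 and did not pass (edgeR adjusted p = 0.999). In GENCODE M21, 539 bases (18.01%) of the exonic length of Dbp overlap exons of Sphk2 on the opposite strand, and the libraries are stranded but the strand setting of the count is not given in the sources used here. Sphk2, a sphingosine kinase, had a 7-week log2 fold change of 0.08 (SE 0.057) and did not pass.

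**Figure D1:**
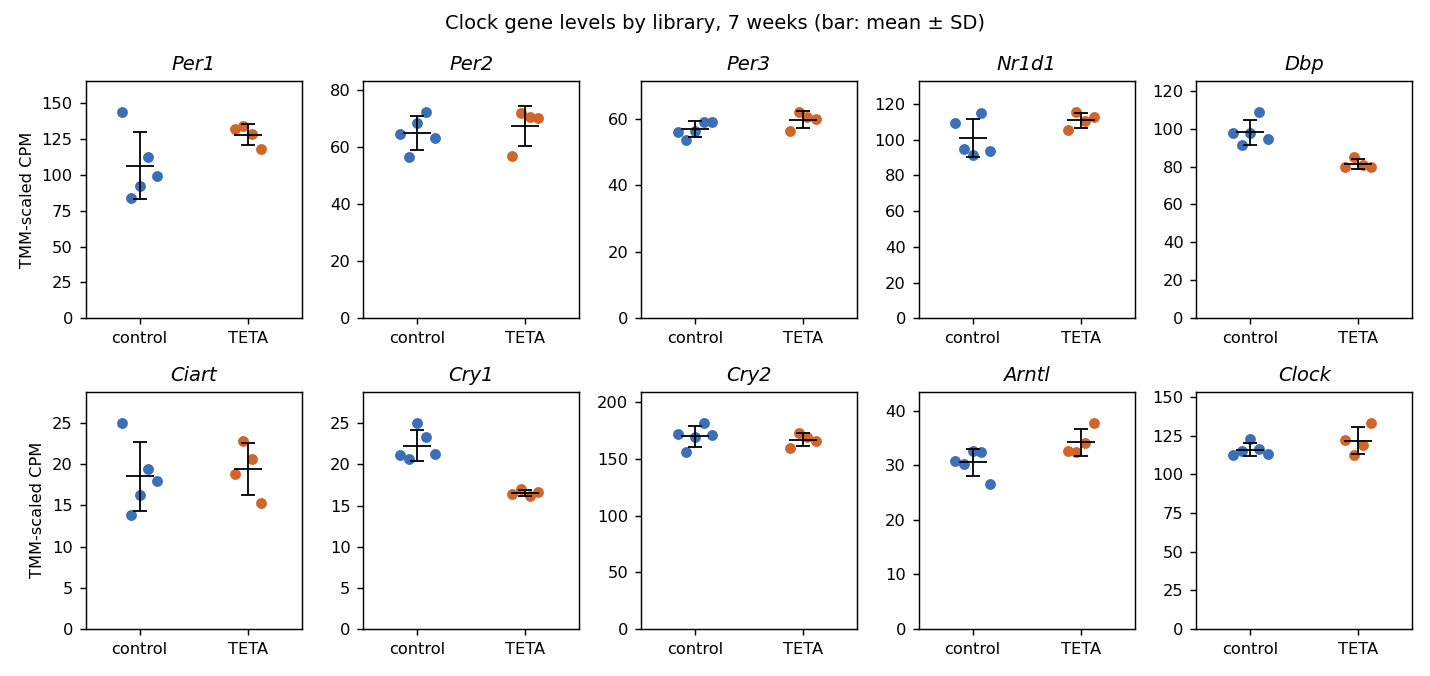
Levels of the 10 clock genes at 7 weeks in TMM-scaled CPM (vertical axes, each from 0), 1 point per library, for 5 control and 4 TETA libraries, with the mean and SD as bars. The groups separate for Cry1 and Dbp only; control replicate 1 is the highest point for Per1 (144 CPM) and Ciart (25.1 CPM).

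The period genes encode the repressors that dimerize with cryptochromes. Per1, which is also induced quickly by light, neuronal activity and glucocorticoids, was at 143.9, 84.1, 92.5, 113 and 99.1 CPM in control and at 132, 134, 128 and 118 CPM in TETA. The 4 TETA libraries lay above 4 of the 5 control libraries, and control replicate 1 lay above all of them. The log2 fold change was 0.27 (SE 0.10), with an edgeR adjusted p of 0.1002. Without control replicate 1 it was 0.40 with an edgeR adjusted p of 0.000616, so the call depends on that library. Per2 was at 64.7, 56.5, 68.6, 72.4 and 63.2 CPM in control and at 57.0, 72.2, 70.6 and 70.1 CPM in TETA (log2 fold change 0.05, SE 0.067). Per3 was at 53.7 to 59.2 CPM in control and 56.4 to 62.04 CPM in TETA (log2 fold change 0.07, SE 0.042). Neither Per2 nor Per3 passed, and their groups overlapped.

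Nr1d1 and Ciart encode further repressors of the loop, NR1D1 acting on Arntl and CIART (CHRONO) on the activator complex itself. Nr1d1 was at 109, 94.7, 91.3, 115 and 93.8 CPM in control and at 105, 116, 110.3 and 112 CPM in TETA. The ranges overlap, and the log2 fold change was 0.14 (SE 0.057, edgeR adjusted p = 0.136). Without control replicate 4 it was 0.19 with an edgeR adjusted p of 0.028. Nr1d1 shares 263 exonic bases with Thra on the opposite strand, and Thra, a thyroid hormone receptor, had a log2 fold change of 0.03. Ciart was at 25.1, 13.8, 16.3, 19.5 and 18.03 CPM in control and at 18.8, 22.9, 20.6 and 15.3 CPM in TETA (log2 fold change 0.06, SE 0.13). Its spread within groups was larger than that of 98.8% of all genes tested, and that of Per1 was larger than 96.8%, so a small difference in either was not detectable with these libraries.

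The positive arm lay above 0 as well. Arntl was at 30.8, 30.3, 32.6, 32.4 and 26.6 CPM in control and at 32.6, 32.4, 34.1 and 37.8 CPM in TETA. The ranges meet, and the log2 fold change was 0.17 (SE 0.061, edgeR adjusted p = 0.0912). Clock was at 113 to 123 CPM in control and 113 to 134 CPM in TETA (log2 fold change 0.07, SE 0.043, edgeR adjusted p = 0.327). The 6 evening arm genes had a median log2 fold change of 0.07, with 5 positive and 1 negative, and both positive arm genes were positive with a median of 0.12. Both medians lay above 0, and of the genes in both arms only Dbp passed. Dbp had the opposite sign to Per1 and Nr1d1, which did not pass. The pattern was not tested as a list, and the hours of collection, which could differ between groups, were not tested.

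Ratios within a library remove library scaling and show these contrasts directly. The ratio of Dbp to Nr1d1, both early E-box targets, was 0.892 to 1.07 in control and 0.708 to 0.758 in TETA at 7 weeks, with means of 0.976 ± 0.0667 and 0.734 ± 0.0204 (SD, n = 5 and 4). The ratio of Cry1 to Cry2 was 0.123 to 0.148 in control and 0.0953 to 0.103 in TETA. The ratio of Dbp to Arntl was 2.99 to 3.56 in control and 2.11 to 2.63 in TETA. Groups did not overlap for any of these 3 ratios, which hold Cry1 or Dbp and so restate their fall. The ratio of Dbp to Per1 was 0.677 to 1.09 in control and 0.604 to 0.676 in TETA, with control replicate 1 just above the highest TETA library. By contrast the ratio of Nr1d1 to its target Arntl was 3.31 ± 0.337 in control and 3.25 ± 0.243 in TETA, and these values overlapped.

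**Figure D2:**
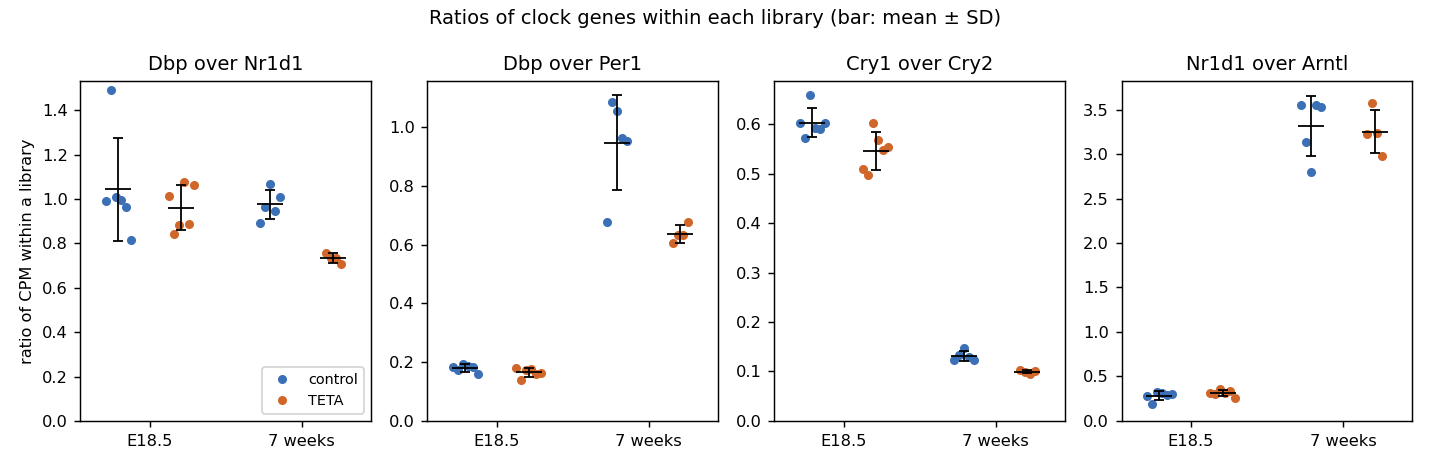
Ratios of TMM-scaled CPM between pairs of clock genes within each library (vertical axes, from 0), at E18.5 (6 control, 6 TETA) and 7 weeks (5 control, 4 TETA), with the mean and SD as bars. Dbp over Nr1d1 and Cry1 over Cry2 separate the groups at 7 weeks, and Nr1d1 over Arntl does not; all 4 ratios overlap between groups at E18.5.

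Other genes of the clock moved in both directions at 7 weeks. Of 26 such genes tested, 3 were higher, 2 were lower and 8 had an unadjusted p under 0.05, beside 5.67%, 4.28% and 24% of all genes. The median log2 fold change of the 26 was -0.03. In the evening arm, Bhlhe40, whose product DEC1 competes for E-boxes, was at 161, 110, 143, 164 and 124 CPM in control and at 168, 195, 182 and 175 CPM in TETA. Its groups did not overlap, and it rose by 0.36 on the log2 scale (SE 0.083, edgeR adjusted p = 0.00803). Usp2, a rhythmic deubiquitinase, was at 65.6, 64.7, 65.1, 69.9 and 71.1 CPM in control and at 59.6, 61.0, 64.5 and 56.1 CPM in TETA. Its groups did not overlap either, and it fell by 0.16 (SE 0.045, edgeR adjusted p = 0.0305). Nr1d2, the paralogue of Nr1d1, had a log2 fold change of -0.03. The PAR bZIP factors Tef and Hlf, relatives of Dbp, had log2 fold changes of -0.04 and -0.05, and neither passed. Bhlhe41 was at -0.02 and the cell cycle kinase Wee1 at 0.08, and neither passed.

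On the positive side, Npas2, which can stand in for CLOCK in forebrain, was at a log2 fold change of 0.08 (SE 0.041), and the repressor Nfil3 at 0.06 (SE 0.11). Neither passed. Among the ROR receptors, activators of Arntl, Rorb fell by 0.18 (SE 0.055, edgeR adjusted p = 0.0425), from 41.7 ± 2.57 to 36.8 ± 2.79 CPM (SD, n = 5 and 4). Its ranges overlapped. Rora had a log2 fold change of -0.06 and did not pass. Arntl2, a paralogue of Arntl, rose by 0.45 (SE 0.096, edgeR adjusted p = 0.00479), from 7.25 ± 0.508 to 9.88 ± 1.33 CPM, with no overlap. Csnk1a1, a casein kinase that acts on PER proteins, rose by 0.11 (SE 0.032, edgeR adjusted p = 0.0394), with overlapping ranges.

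**Figure D3:**
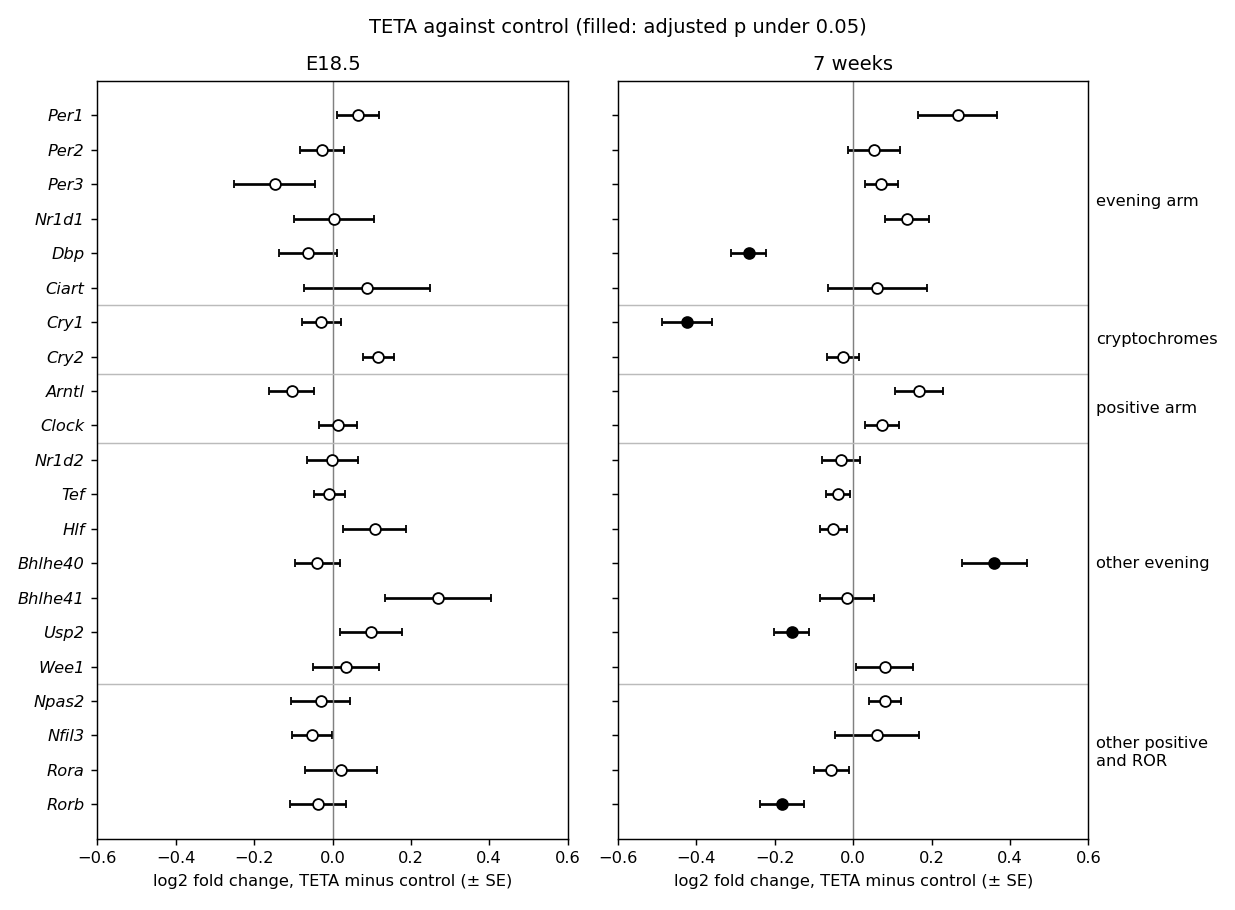
Log2 fold change of TETA against control (horizontal axis, with SE as bars) for the 10 members and for other evening arm, positive arm and ROR genes that were tested at both ages; filled points passed an adjusted p of 0.05. At 7 weeks the filled points lie on both sides of 0 (Dbp -0.27, Cry1 -0.42, Bhlhe40 0.36, Usp2 -0.16, Rorb -0.18), and none is filled at E18.5.

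Levels of striatal markers separated the same libraries at 7 weeks. All 13 striatal neuron markers were lower in TETA, with a median log2 fold change of -1.34. The mean centred log2(CPM + 1) of that list was 0.43 to 0.74 in control and -1.08 to -0.53 in TETA, and Drd2, a defining marker of striatal neurons, averaged 19.5 ± 3.81 CPM (SD, n = 5) without the drug and 3.89 ± 1.72 CPM (SD, n = 4) with it. With that level as a covariate 0 of 14240 genes passed edgeR's test and 699 had an unadjusted p under 0.05, and the log2 fold changes of Cry1 and Dbp were -0.15 and -0.09 (edgeR adjusted p = 0.999 for each). Other members moved away from 0 with that covariate: Per1 went from 0.27 to 0.92 (edgeR adjusted p = 0.931), Ciart from 0.06 to 0.70 and Nr1d1 from 0.14 to 0.29 (edgeR adjusted p = 0.999 for both). The striatal level separates the groups completely, so the group and that level cannot be told apart. Within groups, across the 9 libraries, the striatal level had a Pearson r of 0.43 with Cry1 (permutation p = 0.154) and a Spearman rho of 0.35 (permutation p = 0.254), and r was 0.34 without the 2 farthest libraries. With Dbp the Pearson r was 0.34 (permutation p = 0.321) and rho was 0.47 (permutation p = 0.178), and r was 0.35 without the 2 farthest libraries. Over the 60 relations computed 0 passed, and the adjusted p of these 2 Pearson correlations was 0.777.

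Genes that respond to signals known to act on Per1 passed in part (5 of 12, 2 of 10 and 3 of 7 in the lists for glucocorticoids, early activity and temperature), beside 5.67% of all genes higher and 4.28% lower. Of 12 glucocorticoid-responsive genes 5 were higher and 0 lower in TETA, with a median log2 fold change of 0.29. They were Sgk1 at 0.70, Cdkn1a at 0.55, Tsc22d3 at 0.38, Nfkbia at 0.37 and Zbtb16 at 0.31. The mean centred level of this list was -0.26 to 0.05 in control and -0.15 to 0.56 in TETA, so the groups overlapped. Of 10 early activity genes 2 were higher, Arc at 0.70 and Fosb at 0.58, while Npas4 at -0.26 and Btg2 at -0.12 did not pass, and the list level was -0.65 to 0.25 in control and 0.003 to 0.32 in TETA. Of 7 temperature-responsive genes 3 were higher, Hspa1b at 0.68, Hspa1a at 0.44 and Dnajb1 at 0.19, with list levels of -0.12 to -0.02 in control and -0.007 to 0.16 in TETA. The cold-induced genes Cirbp and Rbm3 had log2 fold changes of -0.12 and -0.08 and did not pass. The part of these groups in the values of the clock genes was not tested.

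Markers of other cell types are set beside 9.96% of all genes called at 7 weeks, 5.67% higher and 4.28% lower. Of 5 markers each, 0 cortical neuron, 0 oligodendrocyte, 0 microglia and 0 blood genes passed. All 5 oligodendrocyte markers were negative (median log2 fold change -0.11), and 2 had an unadjusted p under 0.05. Of 5 astrocyte markers 4 were negative (median -0.11), and 4 had an unadjusted p under 0.05, beside 24% of all genes. Of the cortical neuron, microglia and blood markers 3, 2 and 1 were positive. The astrocyte marker Aldh1l1 was lower by a log2 fold change of -0.21 (1 of 5), the endothelial marker Flt1 was higher at 0.22 (1 of 5, with 3 of the 5 negative and a list median of -0.02), and the choroid plexus marker Clic6 was lower at -1.60 (1 of 4 tested). The choroid plexus list had a median log2 fold change of -0.93, and Ttr was at -3.62 and did not pass (edgeR adjusted p = 0.0837), with its high control value from replicate 4 alone. That library was also the highest in control for 5 of the 10 members, Dbp, Nr1d1, Per2, Per3 and Cry2. Without it 1173 genes passed, Cry1 was at -0.41 (edgeR adjusted p = 0.00124), Dbp at -0.23 (edgeR adjusted p = 0.00152) and Nr1d1 at 0.19 (edgeR adjusted p = 0.028). Of the 7 pacemaker markers 2 were tested, and Grp, a peptide also made in cortex, was higher at 0.52.

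Of the E18.5 libraries 3 were left out in 1 alternative. Control replicate 1-1 is the library whose zeros mark the rows divided by 11, and the pair of libraries numbered 1-2 deviated from their group means more alike than any other pair with a shared number (r = 0.331 across genes, next to 0.279 for the pair numbered 3-2). That likeness does not show that the pair differed from the rest of their groups.

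At E18.5 no member passed the test between TETA and control, and neither did any other gene. The edgeR test called 0 of 13794 genes, a background of 0%; 660 genes (4.78%) had an unadjusted p under 0.05, and DESeq2 called 10 genes. Of the members 0 of 10 passed and 1 of 10 had an unadjusted p under 0.05. The log2 fold changes were positive for 5 members (48.2% of all genes) and negative for 5, from -0.15 to 0.12, with a median of -0.01. No member's groups were free of overlap, beside 0.312% of all genes.

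Cry2 had the smallest p of the members at E18.5. It was at 52.4 to 60.3 CPM in control, with a median of 56.1 CPM, and at 56.6 to 63.2 CPM in TETA, with a median of 61.2 CPM. Most TETA libraries lay above most control libraries, but the ranges overlapped. The log2 fold change was 0.12 (SE 0.040), and the edgeR adjusted p was 0.828. Cry1 was at 30.9 to 35.8 CPM in control, with a median of 33.9 CPM, and at 30.7 to 34.6 CPM in TETA, with a median of 33.6 CPM (log2 fold change -0.03, SE 0.049). Dbp was at 6.42 to 7.80 CPM in control, with a median of 7.16 CPM, and at 6.34 to 7.38 CPM in TETA, with a median of 6.96 CPM (log2 fold change -0.06, SE 0.074).

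Taken singly, the other members showed no separation at E18.5. Arntl was at 22.7 to 27.2 CPM in control and 20.5 to 24.9 CPM in TETA (log2 fold change -0.10, SE 0.057). Per3, at 4.03 to 5.11 CPM in control and 3.38 to 4.80 CPM in TETA, had the most negative log2 fold change, -0.15 (SE 0.10). Per1 and Per2 had log2 fold changes of 0.06 (SE 0.053) and -0.03 (SE 0.055). Those of Clock, Nr1d1 and Ciart were 0.01 (SE 0.049), 0.00 (SE 0.10) and 0.09 (SE 0.16). Ciart rested on 20 to 43 counts per library and Per3 on 55 to 115, so small differences in them were not detectable at this depth. Within libraries, the ratio of Per1 to Arntl was 1.54 to 1.67 in control and 1.64 to 1.96 in TETA. Its means were 1.60 ± 0.0599 and 1.80 ± 0.102 (SD, n = 6 and 6). The ranges overlapped, with only TETA replicate 3-2 inside the control range. At 7 weeks this ratio was 2.78 to 4.67 in control and 3.12 to 4.14 in TETA. A difference in this ratio was not tested at either age.

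**Figure D4:**
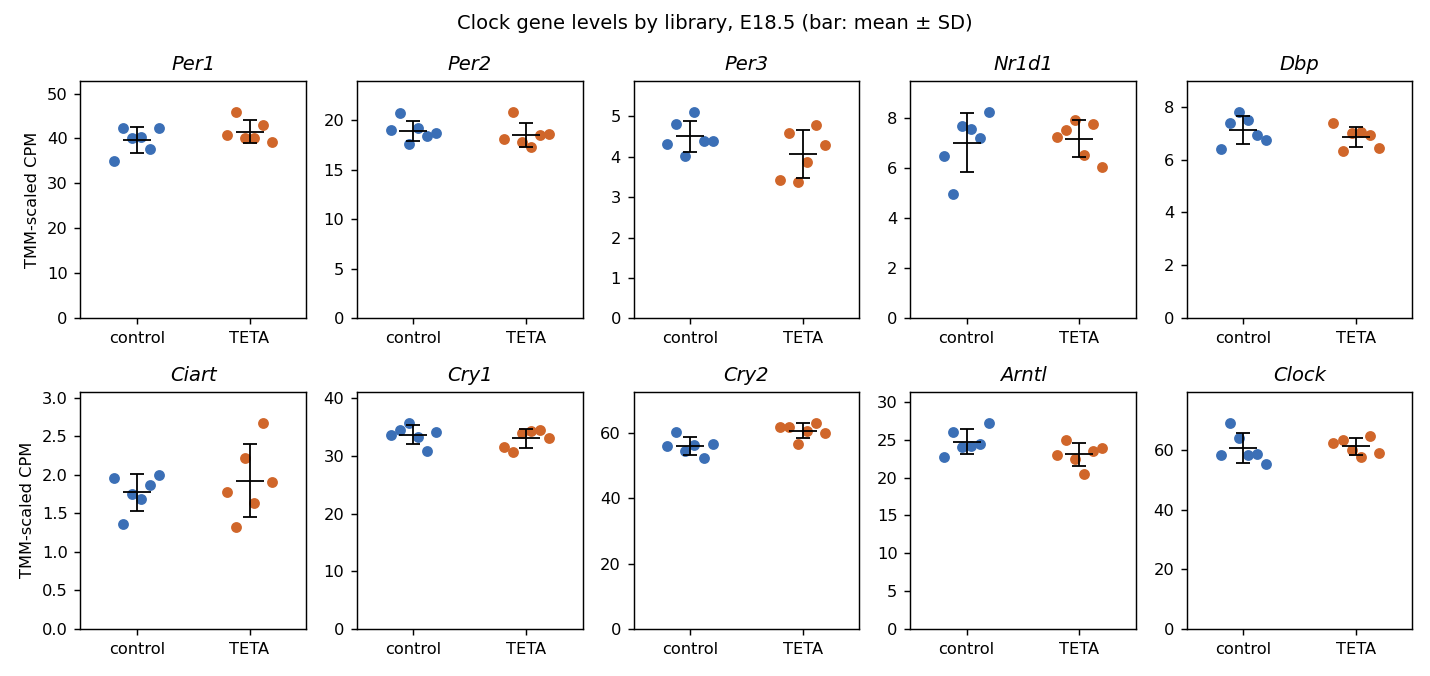
Levels of the 10 clock genes at E18.5 in TMM-scaled CPM (vertical axes, each from 0), 1 point per library, for 6 control and 6 TETA libraries, with the mean and SD as bars. Control and TETA overlap for every gene shown; control replicate 1-2 is the lowest point for Nr1d1 at 4.95 CPM.

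Without these 3 libraries (control replicate 1-1 and both numbered 1-2), a setting chosen after seeing the data, 3 genes passed and 0 of 10 members did. The members' log2 fold changes then ran from -0.18 for Per3 to 0.14 for Cry2 and Ciart, and Nr1d1 went from 0.00 to -0.12. Of 25 other clock genes tested at E18.5, edgeR called 0, and 0 had an unadjusted p under 0.05. The striatal list had 0 of 13 genes past the threshold, with a median log2 fold change of -0.03. Of 10 early activity genes 5 had an unadjusted p under 0.05, beside 4.78% of all genes. In that list 8 were positive and 2 negative, with a median log2 fold change of 0.19. Of 4 endothelial markers tested 3 had an unadjusted p under 0.05, and 3 were positive and 1 negative, with a median of 0.22. The groups did not overlap for 2 of them, both higher, beside 0.13% of all genes. After adjustment 0 passed in either list. Of 4 Y-linked genes 0 passed, and their median log2 fold change was -0.51. One of them, Ddx3y, ran from 0 to 66.8 CPM in control and from 0 to 55.0 CPM in TETA, and with the level of the 4 as a covariate 0 of 10 members passed. Each of the 4 was at 0 CPM in at least 1 library of both groups. The number of male libraries per group is not stated, and its part in the -0.51 was not tested. At 7 weeks 1 of the 4 passed, Eif2s3y, with a log2 fold change of 0.26.

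Whether the TETA difference depended on age was tested in 1 fit of all 21 libraries. The edgeR test called 471 of 13434 genes (3.51%) and 1 of the 10 members. For Cry1 the difference at 7 weeks minus that at E18.5 was -0.41 on the log2 scale (SE 0.078, edgeR adjusted p = 0.00186), and leaving out each library in turn left it between -0.43 and -0.37. For Dbp it was -0.22 (SE 0.084) with an edgeR adjusted p of 0.170, so a fall at 7 weeks that differs from E18.5 was not shown for Dbp. Arntl was at 0.26 (SE 0.088, edgeR adjusted p = 0.101), and without TMM factors at 0.30 with an edgeR adjusted p of 0.0427. Per1 was at 0.19 with an edgeR adjusted p of 0.487, and without control replicate 1 of the 7-week group at 0.32 with an edgeR adjusted p of 0.0377. Age, and whatever differed between the tissues taken at each age, cannot be told apart in this contrast.

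Control levels themselves differed widely between ages. The tables were scaled separately, so these ratios of mean CPM are a description. Nr1d1 was at 7.03 CPM at E18.5 and 101 CPM at 7 weeks, 14.3 times as high. Dbp was 13.7 times as high, Per3 12.6 times and Ciart 10.5 times. Per2, Cry2, Per1 and Clock were 3.44, 3.04, 2.68 and 1.91 times as high, and Arntl was 1.23 times as high, from 24.8 to 30.5 CPM. Of the members Cry1 alone was lower at 7 weeks in control, at 33.7 CPM against 22.3 CPM, a ratio of 0.660. Among other clock genes, Hlf was 31.3 times and Tef 7.33 times as high at 7 weeks, and the repressor Nfil3 was 5.99 times as high at E18.5.

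**Figure D5:**
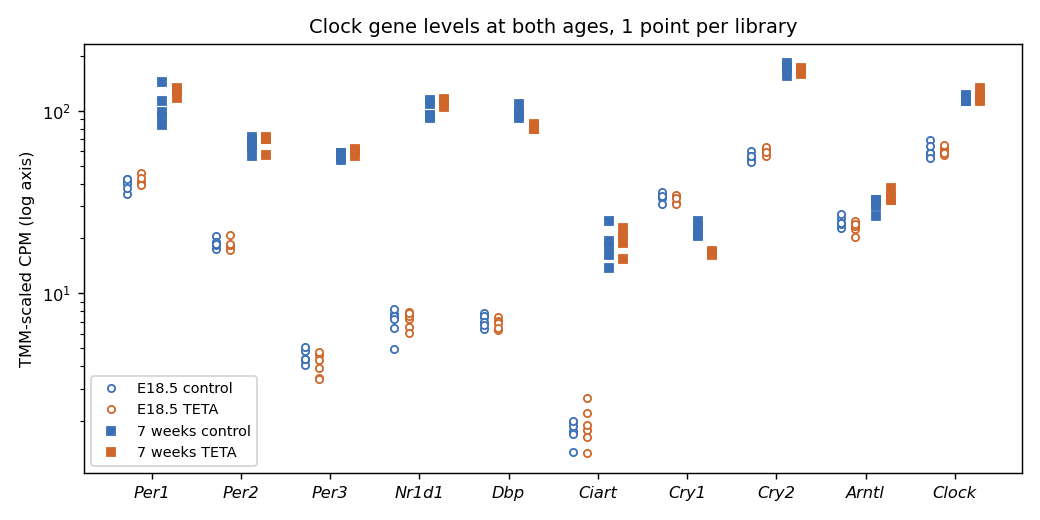
Levels of the 10 clock genes at both ages in TMM-scaled CPM on a log axis, 1 point per library, open circles for E18.5 and filled squares for 7 weeks, blue for control and orange for TETA. The evening arm genes are higher at 7 weeks than at E18.5 in every library, Cry1 is lower, and Arntl overlaps between ages.

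Per kilobase of exon, the order of the members differed between ages. In control at E18.5 Cry1 was highest at 10.1 ± 0.482 CPM per kilobase, followed by Cry2 at 8.86 ± 0.420 and Per1 at 7.04 ± 0.499 (SD, n = 6). Cry1 and Cry2 overlapped in range. Clock followed at 4.42, and Arntl at 3.29 and Per2 at 3.23 CPM per kilobase did not differ beyond their spread. Dbp at 2.38 and Nr1d1 at 2.28 also lay within each other's spread, and Ciart at 0.784 and Per3 at 0.470 were lowest. In control at 7 weeks Nr1d1 at 32.8 ± 3.43 and Dbp at 32.7 ± 2.196 CPM per kilobase were level at the top (SD, n = 5). Cry2 followed at 26.9, Per1 at 18.9 and Per2 at 11.1 CPM per kilobase, and the ranges of Cry2 and Per1 met. Clock at 8.45, Ciart at 8.20, Cry1 at 6.67 and Per3 at 5.92 came next, with Ciart overlapping its neighbours, and Arntl was lowest at 4.06 CPM per kilobase.

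The hour of collection is not known for any library, so its part in these values was not tested. Deviations of Arntl from its group means were compared with those of the 9 other members at each age, 18 relations in all, and 0 passed adjustment. In 3 the unadjusted p was under 0.05. At E18.5, across 12 libraries, Per1 had a Pearson r of 0.73 with Arntl (permutation p = 0.0131, adjusted p = 0.237) and a Spearman rho of 0.66 (permutation p = 0.0317, adjusted p = 0.315), and r was 0.77 without the 2 farthest libraries. Per2 had a Pearson r of 0.62 (permutation p = 0.050, adjusted p = 0.300) and a rho of 0.60 (permutation p = 0.0552, adjusted p = 0.315), and r was 0.70 without those libraries. At 7 weeks, across 9 libraries, Clock had a Pearson r of 0.70 (permutation p = 0.0434, adjusted p = 0.300) and a rho of 0.67 (permutation p = 0.0863, adjusted p = 0.315), and r was 0.71 without the 2 farthest libraries. With Nr1d1, its direct repressor, Arntl had an r of 0.08 at E18.5 (permutation p = 0.810, rho 0.06 with permutation p = 0.861) and 0.31 at 7 weeks (permutation p = 0.552, rho 0.22 with permutation p = 0.619). Without the 2 farthest libraries these were -0.32 and 0.12.

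Relations with other gene groups across libraries, chosen after seeing the data, gave 6 of 60 with an unadjusted p under 0.05. At E18.5 the level of the early activity list had a Pearson r of 0.85 with Per1 (permutation p = 0.00264, adjusted p = 0.158) and a rho of 0.69 (permutation p = 0.0220, adjusted p = 0.440), and r was 0.73 without the 2 farthest libraries. At 7 weeks the glucocorticoid list had a Pearson r of -0.89 with Clock (permutation p = 0.0187, adjusted p = 0.375) and a rho of -0.88 (permutation p = 0.00873, adjusted p = 0.282), and r was -0.63 without the 2 farthest libraries. Ciart went the other way with that list, with a Pearson r of 0.70 (permutation p = 0.0267, adjusted p = 0.400) and a rho of 0.85 (permutation p = 0.00939, adjusted p = 0.282), and r was 0.59 without the 2 farthest libraries. Arntl had a Pearson r of -0.69 with it (permutation p = 0.0370, adjusted p = 0.409) and a rho of -0.65 (permutation p = 0.0985, adjusted p = 0.563), and r was -0.61 without those libraries. At E18.5 the early activity list had a Pearson r of 0.74 with Arntl (permutation p = 0.00891, adjusted p = 0.267) and a rho of 0.60 (permutation p = 0.0529, adjusted p = 0.521), and r was 0.53 without the 2 farthest libraries. The glucocorticoid list there had a Pearson r of 0.64 with Per1 (permutation p = 0.0409, adjusted p = 0.409) and a rho of 0.60 (permutation p = 0.0573, adjusted p = 0.521), and r was 0.44 without the 2 farthest libraries. After adjustment 0 of the 60 passed.

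The genes whose deviations were most like those of Dbp differed between ages. Over 9 libraries at 7 weeks the highest Pearson correlations among 11307 ranked genes were those of Nln (0.98), Smad5 (0.97), Ncoa6 (0.96), Gpr135 (0.95) and Apc2 (0.94), and the lowest were those of Trappc2l, Ctdnep1, Aamdc, Lztfl1 and Enpp6 (-0.94 to -0.91). Over 12 libraries at E18.5, among 11246 genes, they were Tunar (0.85), Synj2, Tmem67, Samd8 and Arl6ip6 (0.79) at the high end and Riox2 (-0.86), Kat5, Thg1l and Taf15 (-0.82) at the low end. None of these is a gene of the clock lists. With so few libraries the ends of such a ranking hold high values for any gene, and the points share library depth, so these are descriptions with no test.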

How the data were processed

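RNA was measured by stranded poly(A) RNA-seq, per the labels' protocols. The authors deposited whole-number counts per gene symbol, 1 table for each age. The submitters' processing notes name STAR 2.7.1a, featureCounts 2.0.1 and mm10, with no role or order. Each of the 21 columns matched 1 sample title.

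The 1940 rows at E18.5 that are 0 in control replicate 1-1 were divided by 11. Of these, 0 were among the genes tested. At each age, genes were kept by filterByExpr (minimum count 10), scaled by TMM and tested by edgeR 4.0.16's quasi-likelihood test, TETA against control, with Benjamini-Hochberg adjustment over all genes at 0.05. The age contrast used 1 fit of all 21 libraries. SE is the log2 fold change divided by the square root of F. Levels are TMM-scaled CPM. Levels per kilobase used GENCODE M21 exon unions. Correlations used deviations of log2(CPM + 1) from group means, with 100000 permutations of libraries within groups. The likeness ranking kept genes with a mean of at least 5 CPM. DESeq2 1.42.0, R 4.3.3, limma 3.58.1, Python 3.11.15, scipy 1.17.1, numpy 2.4.6 and pandas 2.3.3 were also used.

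The members, gene lists and tests were chosen with earlier results of these data known. Named were all 10 members, every other evening arm, positive arm and ROR gene, at most 6 genes past the adjusted threshold in each other list, and at each age the 5 genes most and the 5 least correlated with Dbp. A few genes that this rule takes in are not reported here. Slc17a7, Tbr1, Six6, Avp, Vip, Cirbp, Rbm3, Sphk2 and Thra were named as tissue checks or overlapping genes after their values were seen. Lhx1, Ttr, Npas4, Btg2 and Ddx3y, which did not pass, were also named outside this rule. The count test was tested on simulated data: of 200 genes shifted by 0.5 (log2) it found 91% at E18.5 and 85% at 7 weeks, and with none shifted it called 0. In the runs with that shift it also called 7 and 2 unshifted genes. Every simulated gene had the same dispersion, and the shift exceeds every member's change, so these rates are not the power for the members. Counts of 305 or more per library lie behind Cry1 at 7 weeks, and 1526 or more behind Dbp.

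Alternatives were an unfiltered fit, a filter at a mean of 50 counts, no TMM factors, DESeq2, counts as deposited, Y-linked or striatal level as a covariate, a replicate block, and leaving out each library. At E18.5 the block was tried by the full number and by the first number. A pseudocount of 0.1 was tried for the correlations.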

Additional observations from a re-analysis of the deposited data

Results flagged for a closer look

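Per2 in TETA replicate 1 at 7 weeks lay apart from its group, at 57.0 CPM against 70.1 to 72.2 CPM in the other 3 libraries. The gap was 0.878 of the group's range, above Dixon's critical value of 0.829 for 4 libraries. It was the only such case among 40 groups of member values, where chance gives about 2.0. Within TETA the same library also had the lowest value for Per3, Cry2 and Nr1d1, and it was not the lowest for Per1, Ciart, Arntl or Clock.

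The TETA difference of Cry1 differed between ages by the test of the difference itself: at 7 weeks minus E18.5 it was -0.409 on the log2 scale (adjusted p = 0.00186 in edgeR's quasi-likelihood test). Cry1 was lower in 4 of 4 TETA libraries than in any control library at 7 weeks, and the ranges overlapped at E18.5.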

How the results depend on the processing

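Cry1 and Dbp at 7 weeks kept their direction and their side of the threshold under an unfiltered fit, a filter at a mean of 50 counts, no TMM factors, DESeq2, the replicate block and leaving out each library. With the striatal level as a covariate 0 genes passed at 7 weeks, Cry1 was at -0.15 and Dbp at -0.09 (neither passed), Per1, Ciart and Nr1d1 were at 0.92, 0.70 and 0.29 (none passed), and Per3 and Cry2 changed sign, to -0.0093 and 0.021; the cause was not tested. Leaving out 1 library gave 0 to 7 genes at E18.5, 927 to 1392 at 7 weeks and 296 to 630 for the age difference, against 0, 1418 and 471 with all libraries; the lowest of 927 and 296 came without TETA replicate 3 of 7 weeks, with fewer samples. At E18.5 DESeq2 gave 10 genes, and leaving out control 1-1 and both libraries numbered 1-2 gave 3.

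The other sign changes were of values that did not pass with all libraries. At E18.5 Nr1d1 was at -0.0039 without TMM, -0.0051 with the Y-linked covariate and -0.12 without those 3 libraries, where Cry1 was at 7.18e-05. Leaving out 1 library gave -0.065 to 0.052 for Nr1d1, -0.064 to 0.00058 for Per2, -0.012 to 0.054 for Clock and -0.019 to 0.17 for Ciart at E18.5, and -0.032 to 0.20 for Ciart at 7 weeks. For the age difference it gave -0.12 to 0.10 for Ciart, which was 0.0030 without TMM, and -0.0036 to 0.080 for Clock.

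Control and TETA libraries that share a number were not clearly alike, with correlations of -0.322 to 0.331 at E18.5 and -0.116 to -0.0355 at 7 weeks. Libraries of the same group that share a first number at E18.5 were not compared. With the first number as a block no member passed at E18.5. With the replicate block 0 genes passed at E18.5 and 1063 at 7 weeks, where control replicate 5 has no partner and was left out. Cry1 was then at -0.44 and Dbp at -0.28. Counting depth limits Ciart, Per3, Dbp and Nr1d1 at E18.5.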
